A study of Mus musculus with 7 samples.

Results

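The lysosomal hydrolase and membrane genes are 33 genes chosen by name, each found by its NCBI mouse gene number as a row of its own among the 24990 rows of the deposited tables. The choice was made with earlier results of these data known. The genes comprise 7 proteases, 10 glycosidases and sulfatases, 7 lipid hydrolases, carriers and cofactors, 5 membrane proteins, 3 genes of the proton pump and the regulator Tfeb. They were followed in 7 libraries of 3′ RNA-seq, which reads a transcript from its 3′ end, made from embryoid bodies, the aggregates that differentiating embryonic stem cells form in suspension. All 7 came from the R1 mouse embryonic stem cell line, differentiated in serum medium without Lif and collected on day 4. By title, 1 library came from a CRISPR knockdown of Meteor (KD), 1 from its control (Ctrl, labelled empty vector), 1 from cells with the Meteor promoter inverted (pInv), 2 from cells with that promoter deleted (pKO1 and pKO2) and 2 from wild-type cells (WT1 and WT2). Meteor is a long non-coding RNA locus whose effect on the level of the transcription factor Eomes is the subject of the study. The genotype field contradicts the titles of 5 libraries: it gives promoter KO for WT1 and WT2, promoter inversion for pKO1, and WT for pKO2 and pInv. Groups follow the titles here, so every direction between pInv, pKO and WT rests on that choice. The knockdown is called Cas9 in the design text and dCas9 in the sample field. The sources used here give neither the number of clones per line nor the cultures behind the libraries of a group, so a p-value here reflects how far these libraries vary, which may be technical.

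Lysosomes are the acidic compartments in which cells break down proteins, glycans, lipids and nucleic acids delivered by endocytosis and autophagy. Their soluble hydrolases are made in the secretory pathway, tagged with mannose 6-phosphate and sorted to the lysosome, where a proton pump keeps the lumen acid and heavily glycosylated membrane proteins shield the limiting membrane. Many of these genes share a promoter element around the letters CACGTG that the transcription factor TFEB binds, and professional phagocytes such as macrophages carry large amounts of several lysosomal proteases.

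Promoter sequences are shown for 5 members because the members parted in the knockdown library: Ctsl, Ctsz and Ppt1 stood 2-fold or more above the control there, while Lamp1 and Ctsd did not. They were taken from RefSeq on the build GRCm38.p6, run from 250 bases before to 50 bases after the annotated start, and carry every CACGTG in capitals. The deposited tables were made on mm9, so these positions belong to the reference alone. No window was available for Ctsb, which had the largest ratio of the members with counts in both libraries. Members under 2-fold whose windows lack CACGTG, Cd63 and Npc2 among them, are not shown. Nor are Lamp2 and Gusb, which were also 2-fold or more above the control and whose windows lack CACGTG. The 5 shown are examples and do not stand for the other members.
Ctsl, chr13:64370471-64370770, minus strand: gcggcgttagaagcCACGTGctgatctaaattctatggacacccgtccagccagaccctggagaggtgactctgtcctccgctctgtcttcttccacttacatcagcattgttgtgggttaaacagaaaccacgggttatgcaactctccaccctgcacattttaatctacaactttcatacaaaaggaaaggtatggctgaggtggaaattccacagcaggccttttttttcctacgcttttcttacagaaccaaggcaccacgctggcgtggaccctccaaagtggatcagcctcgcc
Ctsz, chr2:174438990-174439289, minus strand: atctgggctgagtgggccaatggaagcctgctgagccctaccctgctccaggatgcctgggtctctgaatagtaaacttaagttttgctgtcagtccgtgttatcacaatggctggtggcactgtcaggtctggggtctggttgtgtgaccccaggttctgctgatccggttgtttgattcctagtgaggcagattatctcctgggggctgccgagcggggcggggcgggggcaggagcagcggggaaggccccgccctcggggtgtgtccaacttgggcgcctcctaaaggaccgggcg
Ppt1, chr4:122835977-122836276, plus strand: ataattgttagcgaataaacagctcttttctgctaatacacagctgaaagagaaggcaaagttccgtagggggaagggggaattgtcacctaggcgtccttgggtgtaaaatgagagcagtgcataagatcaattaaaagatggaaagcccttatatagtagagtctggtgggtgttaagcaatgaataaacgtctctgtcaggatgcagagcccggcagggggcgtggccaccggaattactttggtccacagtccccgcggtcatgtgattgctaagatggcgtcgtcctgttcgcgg
Lamp1, chr8:13158911-13159210, plus strand: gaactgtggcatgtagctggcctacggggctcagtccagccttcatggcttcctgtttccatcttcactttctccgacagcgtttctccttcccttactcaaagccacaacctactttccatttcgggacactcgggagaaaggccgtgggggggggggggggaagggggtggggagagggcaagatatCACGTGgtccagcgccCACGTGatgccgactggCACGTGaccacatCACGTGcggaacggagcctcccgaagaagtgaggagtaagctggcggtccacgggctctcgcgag
Ctsd, chr7:142387778-142388077, minus strand: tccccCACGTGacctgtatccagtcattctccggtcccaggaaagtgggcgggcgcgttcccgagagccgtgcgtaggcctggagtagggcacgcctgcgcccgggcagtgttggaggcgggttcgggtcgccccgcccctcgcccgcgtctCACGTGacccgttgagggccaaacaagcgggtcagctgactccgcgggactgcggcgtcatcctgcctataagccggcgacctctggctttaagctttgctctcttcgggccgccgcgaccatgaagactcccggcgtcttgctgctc
The letters CACGTG, which read the same on both strands, occurred 4 times in the Lamp1 window, between 61 and 15 bases before the start. They occurred at −245 and −98 from the start in Ctsd and at −236 in Ctsl. Across the 27 of 33 members with a window in the table, 11 held CACGTG (40.7%), against 8.09% of the 27025 genes with a window. The longer form TCACGTG or CACGTGA, which contains the shorter, was found in 10 of the 27 (37.0%), against 4.29% of all genes. Of the 6 members 2-fold or more higher in KD than in Ctrl at 20 CPM or more in either library, 5 had a window. CPM, a scaled count, is defined in the next paragraph. Of these 5, 1 held CACGTG, Ctsl, against 10 of the 22 other members. The 22 include Naglu and Gaa, which held CACGTG and had KD to Ctrl ratios of 6.36 and 2.07, but lay below 20 CPM. The contrast of 1 of 5 with 10 of 22 thus depends on that minimum, and nothing is read from it. A match is a description of these letters in these windows and was not tied to binding.

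Library totals lay between 1898350 expected counts (WT2) and 2564478 (WT1), of which 12.9% to 24.1% fell to the precursor of ribosomal RNA (45S). Levels are given as CPM, the count of a gene scaled by library total and TMM factor, and a count of 0 allowed up to 1.12 to 1.79 CPM (3 counts). Reads may share a source molecule, as the sources name no molecular identifiers, and intervals and floors thus cover counting error alone. In bulk libraries, more cells of a type and more RNA per cell cannot be told apart. Genes of the primitive streak were detected in every library: the 10 listed markers summed to 2856 CPM in KD, 1929 in Ctrl, 1439 in pInv, 1723 and 2362 in pKO, and 2110 and 669.8 in WT. WT2 thus held the least. The target gene of the study, Eomes, stood at 397.6 CPM in KD against 419.6 in Ctrl (ratio 0.948, 0.861 to 1.04), and the level of Meteor itself is not analysed here, so the titles were not checked by it.

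All 33 members had counts in the KD library, and 31 or 32 had counts in each of the others. Their summed level was 2181 CPM in KD, against 1570 in Ctrl, 1754 in pInv, 1535 and 1411 in pKO, and 1361 and 1672 in WT. KD was the highest of the 7, pInv came next, and the pKO and WT libraries overlapped. The excess of KD over Ctrl, 611 CPM in all, was spread unevenly over the members. The proteases summed to 728.6 CPM in KD and 332.6 in Ctrl, and the lipid hydrolases, carriers and cofactors to 521 and 337. The membrane proteins summed to 773.6 in KD and 756 in Ctrl, the glycosidases and sulfatases to 104 and 83.4, and the proton pump genes to 49.2 and 56.6. The glycosidase, membrane and regulator sums of KD lay within the range of the other 6 libraries, and the proton pump sum lay below it.

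**Figure D1:**
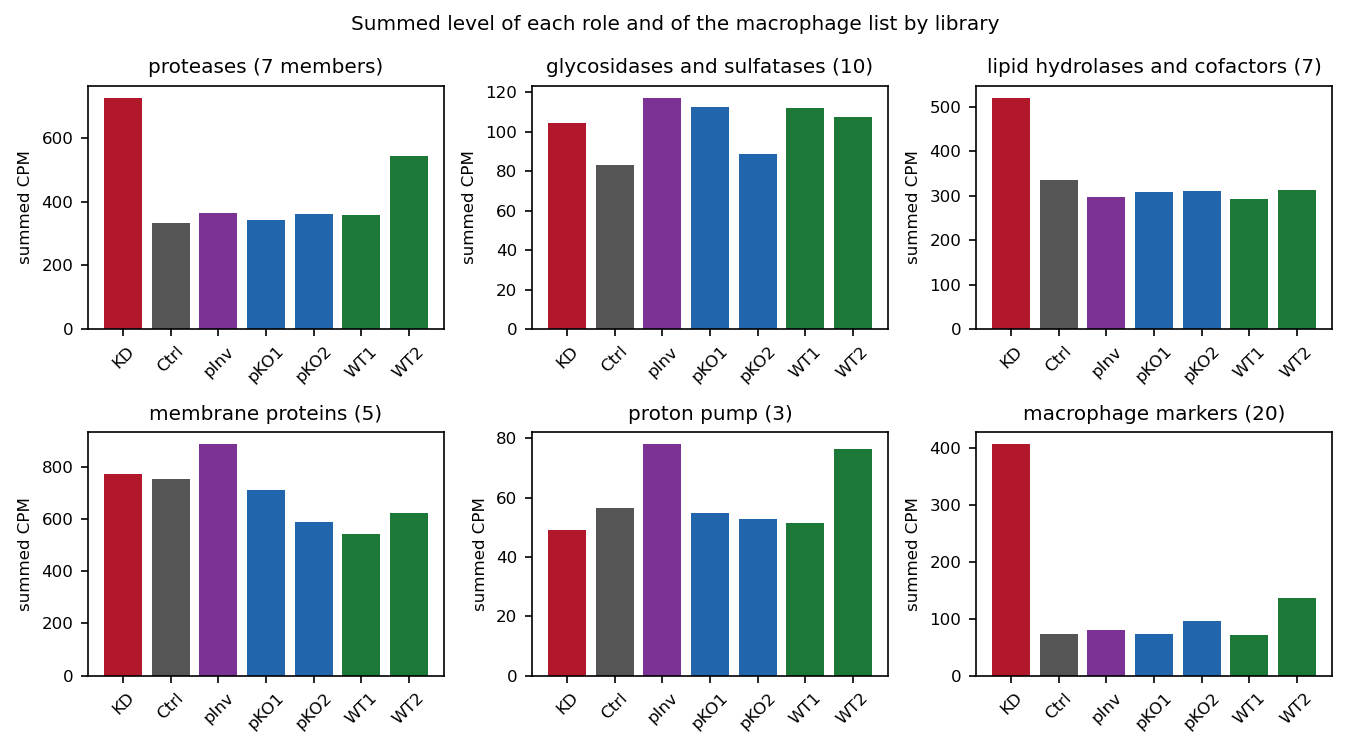
Summed level in CPM (y axis, from 0) of the members of 5 roles and of 20 macrophage marker genes in each library (x axis, 1 bar per library, 1 library per bar). The KD bar is the highest for the proteases (728.6 CPM), the lipid hydrolases and cofactors (521) and the macrophage markers (407), and not for the other 3 panels.

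The comparison of KD with Ctrl asks what the Meteor knockdown does in day 4 embryoid bodies. With 1 library on each side the difference has no replicate check and gets no p-value. A gene was counted as past the fold when it was 2-fold or more apart at 20 CPM or more in either library. Ctsb, Ctsl, Ctsz, Gusb, Ppt1 and Lamp2 were higher in KD by that rule, 6 of the 15 members that reached the minimum, against 4.03% of all 5083 genes that did, and 0 of the 15 were lower, against 1.26% (5.29% past the fold either way). For 5 of the 6, all but Ctsl, Ctrl was under 20 CPM, so they entered through KD itself, and the count of 6 in 15 supports nothing by itself. With genes entered instead by a mean of 5 CPM or more over the 6 other libraries, a rule chosen after the values were seen, 7 of 25 members were higher (those 6 and Gaa) and 1 lower (Asah1), against 4.81% and 3.53% of 8386 genes. Over all 33 members, 21 were higher in KD and 12 lower, where 51.0% of the 10265 genes tested were higher. The 30 members tested had a median log2 ratio of 0.33, against 0.01 for all genes tested, and without TMM factors the values were 0.45 and 0.12. Since the members were chosen with earlier results of these data known, these shares and medians describe the KD and Ctrl libraries only. No conclusion is drawn from their distance to the background.

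**Figure D2:**
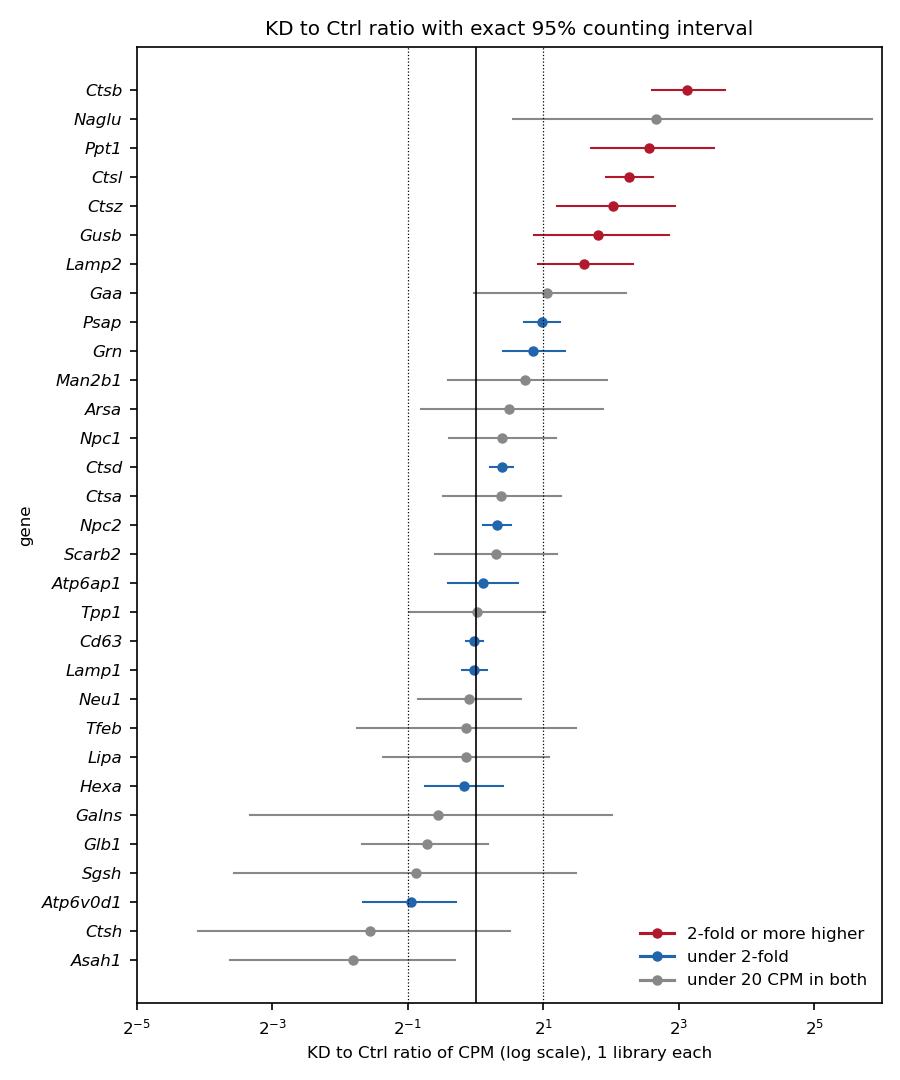
Ratio of the CPM in KD to that in Ctrl (x axis, log scale, 1 library each) for the 31 members with counts in both, with exact 95% counting intervals as lines. Dotted lines mark 2-fold either way. Ctsb lies farthest to the right at 8.72, and the 6 red members lie right of the upper dotted line.

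Among the proteases, the cysteine protease Ctsb differed most. It stood at 149.9 CPM in KD, against 17.2 in Ctrl, 13.1 in pInv, 14.7 and 16.3 in pKO, and 14.6 and 13.7 in WT. The KD library alone was high, and the other 6 lay within 13.1 to 17.2 CPM, so the KD to Ctrl ratio of 8.72 (exact 95% counting interval 6.11 to 12.8) did not hang on the choice of control. Ctsl, the cysteine protease cathepsin L whose window held a single CACGTG, was at 209 CPM in KD, 43.5 in Ctrl, 41.8 in pInv, 73.2 and 31.5 in pKO, and 61.6 and 11.4 in WT. Its ratio was 4.81 (3.81 to 6.13), and the 6 other libraries spread from 11.4 to 73.2 CPM, with WT2 lowest. Ctsz, a carboxypeptidase, had 30.8 CPM in KD, 7.58 in Ctrl, 6.76 in pInv, 5.71 and 6.94 in pKO, and 8.96 and 9.56 in WT, a ratio of 4.06 (2.30 to 7.66). KD again stood clear of the other 6, which spanned 5.71 to 9.56.

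The aspartic protease Ctsd did not follow them. It was at 314 CPM in KD, 240.6 in Ctrl, 291 in pInv, 234 and 292 in pKO, and 257 and 501.9 in WT, and its KD to Ctrl ratio was 1.31 (1.16 to 1.47). Here WT2 and not KD was the highest library. Ctsa, a serine carboxypeptidase that protects beta-galactosidase and sialidase, had 13.8 CPM in KD and 10.6 in Ctrl, and the tripeptidyl peptidase Tpp1 had 9.19 and 9.10. The aminopeptidase Ctsh was near the floor, with 3 counts in KD and 8 in Ctrl.

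Among the genes of lipid breakdown, Ppt1, which removes palmitate from proteins, stood at 38.6 CPM in KD, 6.57 in Ctrl, 7.18 in pInv, 9.99 and 8.17 in pKO, and 4.85 and 6.57 in WT. The ratio was 5.88 (3.26 to 11.5), and KD was far above the other 6. Psap, the precursor of the saposins that present lipids to hydrolases, fell just short of the 2-fold line at a ratio of 1.97 (1.64 to 2.37). It was at 174 CPM in KD, 88.5 in Ctrl, 75.2 in pInv, 86.6 and 67.4 in pKO, and 84.3 and 74.7 in WT, so the other 6 libraries lay close together below KD. Progranulin (Grn), whose product is cut into granulins in the lysosome, had 56.5 CPM in KD, 31.3 in Ctrl, 29.6 in pInv, 22.4 and 35.5 in pKO, and 26.1 and 44.8 in WT (ratio 1.80, 1.32 to 2.49). The cholesterol carrier Npc2 had 227 CPM in KD, 183 in Ctrl, 172 in pInv, 164.5 and 178.5 in pKO, and 160.1 and 160.1 in WT (ratio 1.24, 1.08 to 1.43). KD was the highest library for both genes, by a smaller margin than for Ppt1. The membrane cholesterol transporter Npc1, at 16.5 CPM in KD against 12.6 in Ctrl, and the acid lipase Lipa, at 5.98 against 6.57, had intervals that included 1. Acid ceramidase (Asah1) went the other way, with 2.30 CPM in KD and 8.09 in Ctrl (ratio 0.284, 0.0814 to 0.812), and its 6 other libraries ranged from 1.27 to 14.3.

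**Figure D3:**
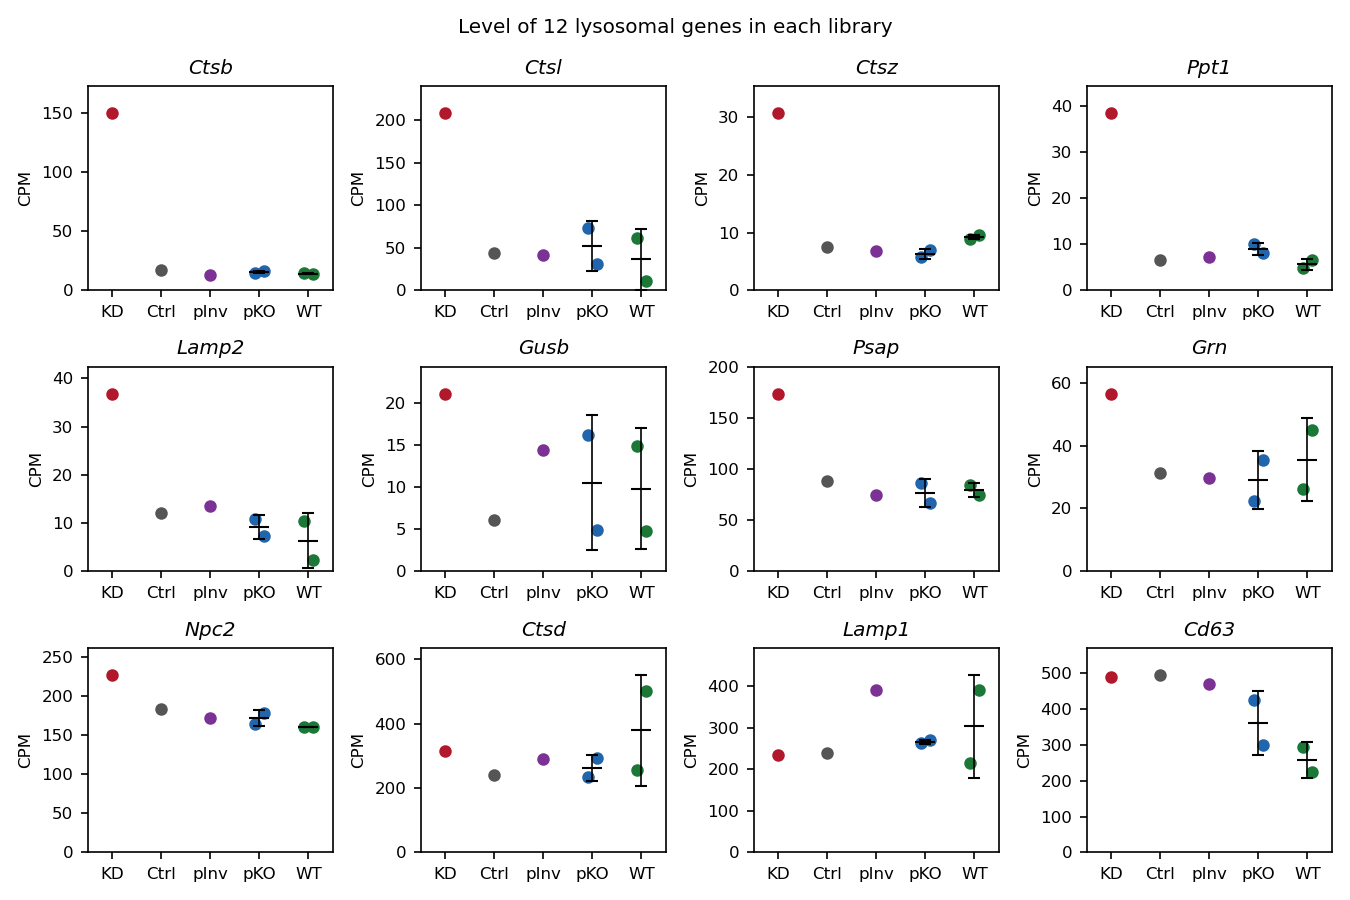
Level in CPM (y axis, from 0) of 12 members in each library (x axis, by group), 1 point per library, with the mean and SD of 2 libraries for pKO and WT. KD lies above all other points for Ctsb, Ctsl, Ctsz, Ppt1, Lamp2, Gusb, Psap, Grn and Npc2, and not for Ctsd, Lamp1 or Cd63.

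The membrane proteins parted as well. Lamp2, a major glycoprotein of the limiting membrane that also serves chaperone-mediated autophagy, had 36.8 CPM in KD, 12.1 in Ctrl, 13.5 in pInv, 10.9 and 7.35 in pKO, and 10.4 and 2.39 in WT, a ratio of 3.03 (1.90 to 5.0). Its relative Lamp1 had 234 CPM in KD, 238 in Ctrl, 391 in pInv, 262 and 269 in pKO, and 216 and 391 in WT, with a KD to Ctrl ratio of 0.985 (0.867 to 1.12). The tetraspanin Cd63, found on late endosomes and exosomes, had 489 and 496 CPM (ratio 0.986, 0.903 to 1.08). Lamp2 was thus highest in KD, while Lamp1 and Cd63 were level between KD and its control, with counting intervals that exclude a difference of 1.5-fold between these libraries. Scarb2, which carries glucocerebrosidase to the lysosome, had 12.4 CPM in KD and 10.1 in Ctrl, and the calcium channel Mcoln1 had 2 counts in KD and 0 in Ctrl.

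Of the glycosidases and sulfatases, Gusb, the beta-glucuronidase, was past the fold, at 21.1 CPM in KD, 6.07 in Ctrl, 14.4 in pInv, 16.2 and 4.90 in pKO, and 14.9 and 4.78 in WT (ratio 3.49, 1.82 to 7.23). Ctrl was among the 3 low libraries for this gene, and KD stood at 2.07 times the median of the other 6. Naglu, which trims heparan sulfate, had 14 counts in KD and 2 in Ctrl (ratio 6.36, 1.46 to 57.7), and WT2 was above both at 12.5 CPM. Acid alpha-glucosidase (Gaa), which degrades glycogen, had 11.5 CPM in KD and 5.56 in Ctrl (ratio 2.07, 0.981 to 4.65), and Man2b1, an alpha-mannosidase, 9.19 and 5.56 (ratio 1.65, 0.755 to 3.82). These intervals included 1, as did those of the remaining 6: Hexa (23.9 CPM in KD and 26.8 in Ctrl) and Glb1 (8.27 and 13.6), which act on gangliosides, the sialidase Neu1 (14.7 and 15.7), and the sulfatases Arsa (6.44 and 4.55), Sgsh (1.38 and 2.53) and Galns (1.38 and 2.02). Of the 10 enzymes in this role, 5 stood higher in KD and 5 lower.

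The proton pump genes moved apart between isoforms of the same subunit. Atp6v0d1, the widely used form of subunit d, had 13.8 CPM in KD, 26.8 in Ctrl, 29.6 in pInv, 20.4 and 23.7 in pKO, and 17.5 and 35.8 in WT, and KD was the lowest of the 7 (ratio 0.515, 0.317 to 0.820). Atp6v0d2, the form known from osteoclasts and macrophages, had 7 counts in KD (3.22 CPM) and 0 counts in each of the other 6. Against the floor of 3 counts in Ctrl it was at least 2.12-fold higher in KD, taking the 7 counts as they stand, and the exact 95% counting interval of the ratio had a lower limit of 1.31. The accessory subunit Atp6ap1 had 32.2 CPM in KD and 29.8 in Ctrl, and Tfeb, the regulator of lysosomal genes, had 3.68 and 4.04 CPM, with 8 counts in each library.

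Summed over a list of markers, macrophage transcripts were also highest in the KD library. Of 20 listed macrophage markers, 14 had counts in KD, against 4 in Ctrl and 3 to 8 in the other 5 libraries, and the list summed to 407 CPM in KD, 72.8 in Ctrl and 70.9 to 137 in the others. C1qc supplied 76.8 CPM of this in KD and 67.5 to 130 in the rest, and without it, a step taken after its level was seen, the sums were 330.5 in KD, 1.52 in Ctrl and 2.38 to 6.57 in the others. Lysozyme (Lyz2) had 174 CPM in KD and 0.506 in Ctrl, the pore-forming Mpeg1 46.9 and 0, and the macrophage receptor Adgre1 28.5 and 0. Lyz2 has a near-identical copy, Lyz1, whose reads the counting could split, and Lyz1, Ptprc, C1qa, Fcer1g, Aif1 and Cx3cr1 were at 0 in KD. The nascent mesoderm list also stood higher in KD, at 238 CPM against 61.2 in Ctrl, and the extraembryonic endoderm list at 672 against 492.9, of which Apoe, a lipoprotein that macrophages also secrete, made up 251 and 67.2. The pluripotency list stood lower in KD, at 1560.1 CPM against 2008.0 in Ctrl and 1818.6 to 2482.6 over all 6 other libraries. Most of each sum was Pou5f1, at 1081.1 CPM in KD and 1529.2 in Ctrl. Of the 4 markers with the highest mean, Pou5f1, Sox2 and Dppa4 were lower in KD than in Ctrl, Sox2 and Dppa4 by 2-fold or more. The fourth, Tdgf1, was higher, at 370.5 CPM against 255.3. The fibroblast list stood at 19.8 CPM in KD and 16.7 in Ctrl. The part of any of these cell types in the KD levels of the lysosomal genes was not tested.

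Among other lysosomal genes that are not members, few were past the fold, beside 4.03% of all genes higher and 1.26% lower. Of 32 further hydrolases, 7 reached 20 CPM in KD or Ctrl, and 2 of these were past the fold, both higher: the cysteine protease Ctss at 66.7 CPM in KD and 0.506 in Ctrl, and the asparaginyl protease Lgmn at 20.2 and 0. Ctss and Lgmn stood at 0 to 2.11 CPM in all 6 libraries other than KD. Of 11 further subunits of the proton pump that reached the minimum, 1 was higher, Atp6v0a1 at 41.4 CPM in KD and 17.2 in Ctrl (ratio 2.41, 1.61 to 3.68). Ctss, Lgmn and Atp6v0a1 were all under 20 CPM in Ctrl and entered through KD. None was past the fold among 6 further membrane genes, 11 genes of enzyme sorting and 12 autophagy genes at the minimum. Of 8 genes of lysosomal nutrient sensing, the GTPase Rraga was higher (57.5 against 25.8 CPM) and the folliculin partner Fnip1 lower (35.9 against 73.3). Median log2 ratios over the tested genes of these lists ran from −0.22 for enzyme sorting to 0.26 for the hydrolases, beside 0.01 for all genes.

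**Figure D4:**
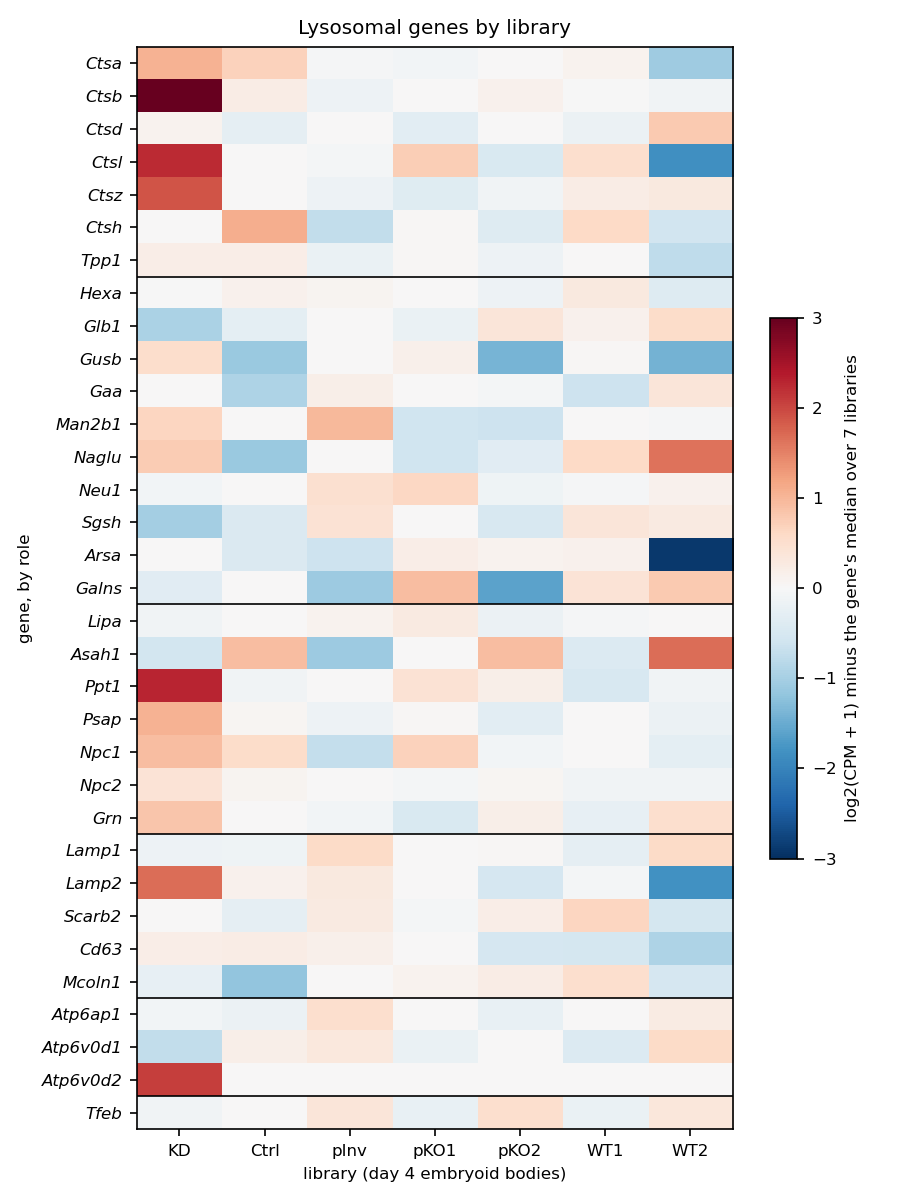
Level of each member (rows, by role) in each library (columns), as log2(CPM + 1) minus the median of that gene over the 7 libraries, on a colour scale cut at 3 either way. The KD column holds the strongest red cells (Ctsb, Ctsl, Ctsz, Ppt1, Lamp2, Atp6v0d2), and the WT2 column holds blue cells for Ctsl, Lamp2 and Arsa beside red ones for Naglu and Asah1.

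Across single libraries, KD was above all 6 others for 12 of the 30 members tested (Ctsa, Ctsb, Ctsl, Ctsz, Tpp1, Gusb, Ppt1, Psap, Npc1, Npc2, Grn and Lamp2), against 20.1% of all genes, and below all 6 for 3 (Glb1, Sgsh and Atp6v0d1), against 17.0%. Nothing is read from these counts, since the members were chosen with earlier results of these data known. Set against the median of the other 6, KD had 7 of 15 members 2-fold or more higher, against 3.27% of genes, namely the 6 above and Psap, and 0 lower, against 0.812%. For 5 of the 7, all but Ctsl and Psap, the median of the other 6 was under 20 CPM, so they too entered through KD, and nothing is read from the count. WT2 was the library with the next most, with 0 of 11 members higher, against 4.45% of genes, and 2 of 11 lower, Ctsl and Cd63, against 9.65%. In the other 5 libraries no member at 20 CPM lay 2-fold or more from the rest. Among all genes 0.123% stood higher and 0.636% lower in Ctrl by this measure, 0.916% and 0.692% in pInv, 0.307% and 0.225% in pKO1, 0.529% and 2.40% in pKO2, and 0.348% and 0.307% in WT1, so such genes were few in these libraries.

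The comparisons of pInv and pKO with WT ask what inverting or deleting the Meteor promoter does. No member passed the Benjamini-Hochberg threshold of 0.05 in edgeR's quasi-likelihood test for pInv against pKO, pInv against WT or pKO against WT, and neither did any of the 10265 genes tested (0.0% in each comparison). Of the 33 members 30 were tested, and Ctsh, Mcoln1 and Atp6v0d2 had too few counts. At an unadjusted p under 0.05 there was 1 member in each comparison, against 1.49%, 1.48% and 1.03% of all genes. Every member had an adjusted p of 1 in edgeR's test. The SE of a log2 difference for single members ran from 0.25 for Npc2 to 1.23 for Galns.

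Among the membrane genes, no difference between pInv and pKO or WT passed the test. Cd63, the member with an unadjusted p under 0.05 for pInv against WT, was at 469 CPM in pInv, 425 and 299 in pKO, and 294 and 223.5 in WT, a log2 difference of 0.85 (SE 0.35) between pInv and WT, with an unadjusted p of 0.0428 in edgeR's test. The pInv and pKO libraries lay above both WT libraries, pKO2 by a small margin, and so did KD and Ctrl. Among all genes tested, pInv lay above both WT libraries for 29.0%, and both pKO libraries did for 12.0%. For Lamp1, with the levels given above, pInv exceeded both pKO libraries by a log2 difference of 0.56 (SE 0.39), but WT2 matched pInv, and the difference from WT was 0.37 (SE 0.40). All 4 tested membrane genes were higher in pInv than in WT, with a median log2 difference of 0.61, and all 4 were higher than in pKO, with a median of 0.45, where all genes tested had medians of −0.01 and 0.00. These are counts over few genes whose single differences did not pass the test. Of 18 further membrane genes tested that are not members, 10 were higher and 8 lower in pInv in each comparison. Their median log2 differences were 0.33 against WT and 0.08 against pKO. Of all genes tested, 48.5% were higher in pInv than in WT and 49.4% higher than in pKO. All of these counts rest on the same pInv library.

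Man2b1 was the member with an unadjusted p under 0.05 between pInv and pKO, at 0.0154 in edgeR's test. It had 11.8 CPM in pInv, 3.33 and 3.27 in pKO, and 5.60 and 5.38 in WT, a log2 difference of 1.60 (SE 0.52) between pInv and pKO. These levels rest on 28 counts in pInv, 7 and 8 in pKO, and 15 and 9 in WT. Among all genes tested, pInv lay above both pKO libraries for 34.2% and above both WT libraries for 29.0%. Both pKO libraries lay below both WT libraries for 12.9%. The 3 groups did not overlap for Man2b1, with pKO lowest and pInv highest, an order not counted over all genes. Asah1 lay the other way, at 1.27 CPM in pInv, 3.80 and 8.17 in pKO, and 2.61 and 14.3 in WT, with a log2 difference of −1.68 (SE 0.99) from pKO and −2.04 (SE 1.02) from WT. Its replicates differed among themselves by more than 2-fold in both groups. Igf2r, the larger mannose 6-phosphate receptor and no member, stood at 6.76 CPM in pInv and at 18.1 and 20.0 CPM in pKO (log2 difference −1.38, SE 0.47).

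Over the 30 tested members, 19 were higher and 11 lower in pInv than in pKO, where 49.4% of all genes were higher. The median log2 difference was 0.11 beside 0.00 for all genes. Against WT the counts were again 19 and 11, where 48.5% of all genes were higher. The median against WT was 0.11 beside −0.01, and with groups taken from the genotype field that median was −0.06. The pInv library lay above both WT libraries for 11 members, against 29.0% of all genes, and below both for 7, against 28.0%. It lay above both pKO libraries for 11, against 34.2%, and below both for 6, against 31.5%. These shares are close to the background. The 2 comparisons share the pInv library, and the lone pInv library is taken to vary as much as WT and pKO do.

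The members divided evenly between pKO and WT. In pKO 15 members were higher than in WT and 15 lower, where 49.3% of all genes were higher. The median log2 difference was −0.01 beside 0.00 for all genes. Both pKO libraries lay above both WT libraries for 4 members (Ctsb, Ppt1, Npc2 and Cd63), against 12.0% of all genes, and below both for 4 (Ctsz, Man2b1, Naglu and Sgsh), against 12.9%, again close to the background. Naglu had an unadjusted p of 0.0225 in edgeR's test, with 1.90 and 2.45 CPM in pKO against 5.60 and 12.5 in WT, a log2 difference of −1.66 (SE 0.58). It rests on 4 and 6 counts in pKO and 15 and 21 in WT. Ctrl and pInv were also below both WT libraries for Naglu, at 1.01 and 3.38 CPM, so levels under both WT libraries were also found outside pKO. The means lay close together for Psap and Npc2 and apart for Cd63 and Ctsd. Cd63 averaged 361.9 ± 89.5 CPM in pKO and 258.7 ± 49.9 in WT, a log2 difference of 0.48 (SE 0.30), and Ctsd 263.3 ± 40.7 and 379.3 ± 173.4, a log2 difference of −0.52 (SE 0.36), and neither passed the test (SD, n = 2 each). Psap averaged 77.0 ± 13.5 CPM in pKO and 79.5 ± 6.82 in WT, and Npc2 171.5 ± 9.87 and 160.1 ± 0.0412 (SD, n = 2 each). Ctsl averaged 52.3 ± 29.5 CPM in pKO and 36.5 ± 35.5 in WT (SD, n = 2 each), a difference smaller than the spread within either group.

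**Figure D5:**
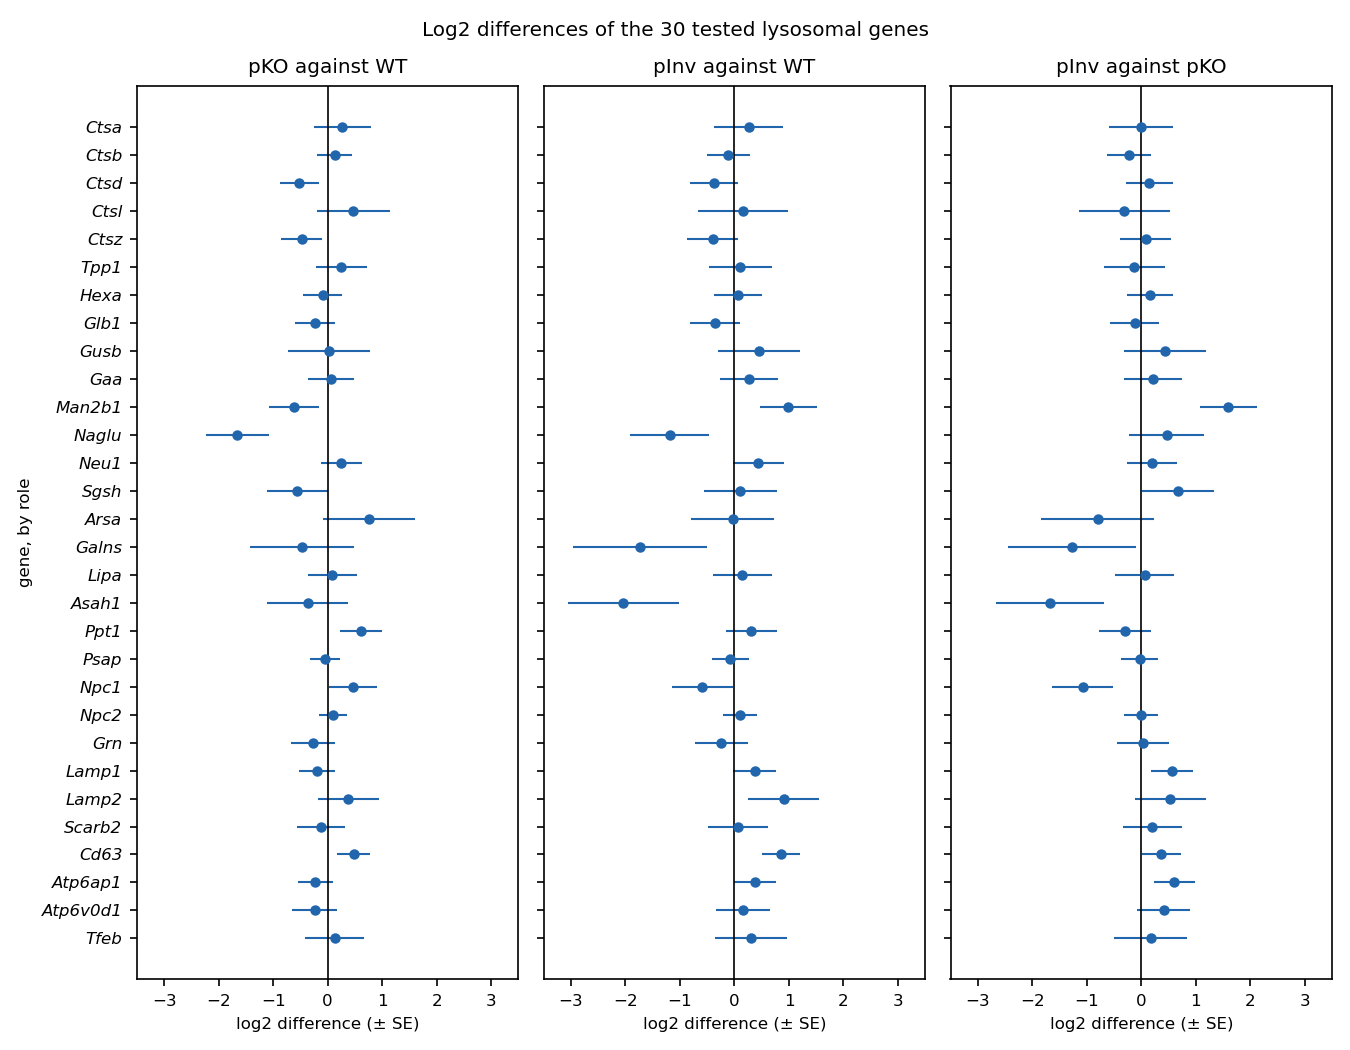
Log2 difference (x axis) with its SE (bar) for each of the 30 tested members (rows, by role) in the 3 comparisons tested with edgeR. Naglu lies farthest left for pKO against WT (−1.66), Asah1 for the 2 pInv panels (−2.04 and −1.68), and Man2b1 farthest right for pInv against pKO (1.60).

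The WT libraries differed from each other in single members. Arsa, the sulfatide sulfatase, had 19 counts in WT1 and 0 in WT2, which allows up to 1.79 CPM there against 7.09 CPM in WT1, and 3.80 to 7.61 CPM in the other 5 libraries. Lamp2 had 2.39 CPM in WT2 against 10.4 CPM in WT1. WT2 was the lowest library for 9 members. Besides Arsa and Lamp2 these were Ctsa, Ctsl, Tpp1, Hexa, Gusb, Scarb2 and Cd63, at 2.39, 11.4, 4.18, 18.5, 4.78, 8.36 and 223.5 CPM in WT2. Ctsd, Glb1, Gaa, Naglu, Asah1 and Atp6v0d1 were highest there, at 501.9, 25.1, 14.9, 12.5, 14.3 and 35.8 CPM. The summed members, 1672 CPM in WT2 and 1361 in WT1, therefore hide members that lay on either side.

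None of the further lysosomal lists held a gene that passed in these comparisons either. Of 20 tested hydrolases beyond the members, 18 membrane genes, 13 pump subunits, 14 sorting genes, 21 autophagy genes and 15 nutrient sensing genes, 0 passed the threshold of 0.05 after adjustment by edgeR in any of the 3. The lysosomal ion channel Tpcn1 had an unadjusted p under 0.05 in that test in both pInv comparisons, at 7.60 CPM in pInv, 18.5 and 22.1 in pKO, and 22.4 and 17.3 in WT. It was the only gene of these lists under that limit in both, and it stood at 19.3 CPM in KD and 12.6 in Ctrl. Reads of 13 of the 33 members may mix with those of a gene that overlaps them in the reference, Ctsb, Ctsz, Ppt1 and Lamp2 among them (with Fdft1, Nelfcd, Cap1 and LOC115489130), since the strand setting of the counting is not given in the sources used here.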

How the data were processed

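Polyadenylated RNA of day 4 embryoid bodies was sequenced from the 3′ end (QuantSeq, per the labels' protocols) in 7 libraries. The authors deposited RSEM tables of expected counts, TPM and FPKM per gene, with mm9 as the build per the submitters' processing notes. Reads were not reprocessed. Expected counts were rounded to whole numbers and tested, the deposited TPM served an alternative, and the deposited FPKM were not used. Rows carry NCBI gene numbers, and names and overlapping neighbours came from a RefSeq table on GRCm38, whose coordinates differ from those of the tables. Of 24990 rows, 23447 named 1 gene, and 26 stayed unnamed, among them the 45S precursor.

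Groups followed the titles. edgeR 4.0.16 (R 4.3.3) fitted all 5 groups together with TMM factors (0.882 to 1.06), its default filter on low counts (10265 genes kept) and quasi-likelihood tests with Benjamini-Hochberg adjustment at 0.05. The common biological coefficient of variation was 0.294, with 2 residual degrees of freedom. Log2 differences use a prior count of 2. Their SE is the absolute log2 difference divided by the square root of the quasi-likelihood F. It is an approximation that is poor for very small differences. Ratios of KD to Ctrl are counts over scaled totals with exact 95% binomial intervals. The code was tested on simulated counts. Tools for alternatives were limma 3.58.1 and DESeq2 1.42.0. Genes outside the members are named from fixed lists, up to 4 per list and comparison by smallest unadjusted p or largest KD to Ctrl ratio, and up to 4 per marker list by mean level. The members and lists were chosen with earlier results of these data known.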

Additional observations from a re-analysis of the deposited data

How the results depend on the processing

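No member was called in pInv against pKO, pInv against WT or pKO against WT under any alternative run: RLE size factors, DESeq2, limma-voom, limma on log2(TPM + 1), no filter on low counts, the 45S precursor left out, groups from the genotype field, each replicate left out and the replicate block. The lowest adjusted p of a member was 0.204. Among 1009 member differences under alternatives, 121 changed sign. Groups from the genotype field, which compare other sets of libraries, changed 21 of 30 for pInv against pKO. They changed 15 of 30 for pInv against WT and 21 of 30 for pKO against WT. Leaving out a replicate changed 0 to 11 (11 for pKO against WT without WT2), and every other setting 0 to 3. Over all genes the main count was 0 in each comparison. With no filter on low counts it was 8 for pInv against pKO, 6 for pInv against WT and 9 for pKO against WT, and with groups from the genotype field 7 for pInv against WT. Leaving out a replicate gave 0 to 7 for pKO against WT (4 without pKO1 and 7 without pKO2), 0 for pInv against WT, and 0 to 7 for pInv against pKO (2 without pKO1 and 7 without pKO2). The median log2 difference of the members for pKO against WT, −0.01, was 0.08 on TPM, 0.09 with the replicate block and 0.00 to 0.06 with a replicate left out. For pInv against WT, 0.11, it was 0.19 on TPM, −0.06 with groups from the genotype field and 0.00 to 0.12 with a replicate left out (0.00 without WT2). For pInv against pKO, 0.11, it was 0.04 with no filter and 0.09 to 0.14 with a replicate left out. The cause of these shifts was not tested.

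The replicate block was fitted to pKO and WT alone and called 0 genes. The numbers share no stated origin, the deviations of the 2 pairs correlate at 0.308, and 2 pairs are too few to settle a pairing.

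For KD against Ctrl the members past the fold in either direction, 6, numbered 6 to 9 under every setting run. Genes past the fold, 269, numbered 1330 at 5 CPM or more, 833 at 1.5-fold, 172 against the median of the other 5 libraries without WT2, and 699 with the 5 CPM minimum set by the 6 other libraries. The median log2 ratio of the members, 0.33, was 0.45 without TMM factors, 0.24 against the median of the other 6 libraries and 0.20 against that of the other 5 without WT2. The settings with medians of other libraries and the last minimum were chosen after seeing the data. Depth limits the members with few counts: Ctsh, Mcoln1 and Atp6v0d2 had at most 8 counts in any library, and their differences were not tested.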
